A study of Mus musculus with 18 samples.

Results

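*Csf1*, *Il34* and *Csf1r* encode both ligands and the receptor through which tissue macrophages receive their main survival signal, and their expression was measured in the dorsal root ganglia (DRG) of mice after sham surgery, after tibial fracture, and after tibial fracture with protectin DX (PDX). The 3 genes were found by their symbols among the 36737 genes of the count table. Bulk RNA-seq had been carried out on L3–L5 DRG of adult CD1 mice, an outbred strain, with 1 library for each of 18 mice, 6 to a group, of which 3 were male and 3 female. Sham mice (Sham) had surgery without fracture, the mice of the second group (Fracture) had a tibial fracture held by an intramedullary pin and received vehicle, and those of the last group (Fracture+PDX) had the same fracture and received PDX, a lipid mediator of the specialized proresolving family. The ganglia of both fracture groups were taken on day 3, while the day for the sham mice and the dose of PDX for these mice are not named in the sources used here. Whole ganglia were sequenced, so the values come from neurons, glia, macrophages, vessels and connective tissue together, and fewer cells of a type cannot be told apart from less RNA per cell.

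CSF1 (macrophage colony-stimulating factor) and IL-34 are secreted proteins without clear sequence likeness that bind the same receptor, CSF1R, a receptor tyrosine kinase of class III. Ligand binding makes a pair of receptor molecules phosphorylate each other, which starts the PI3K-AKT and ERK cascades and supports the survival, proliferation and differentiation of monocytes, macrophages and microglia. In the DRG, macrophages are the main cells known to carry CSF1R, and sensory neurons whose axons have been cut are known to switch on *Csf1*. IL-34 is best known as a ligand made by neurons in the brain and by keratinocytes in the skin. Trophoblast cells of the placenta also carry CSF1R.

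The libraries held from 63235040 to 82824942 counted reads, of which 2301 to 4004 fell on *Csf1*, 2197 to 3507 on *Il34* and 1707 to 3108 on *Csf1r*. CPM here means counts scaled to a common library size by TMM, and levels are in this unit. Where genes are compared with each other the deposited FPKM, which also takes account of transcript length, is used instead. The 12 sensory neuron markers had a median level of 179 (sham), 189 (fracture) and 188 FPKM (fracture plus PDX), with none at 0 in any library, so that the labelled tissue was present. The libraries also held RNA of genes that are known from the placenta and not from ganglia. A list of 22 such trophoblast genes, chosen after their values had been seen, summed to 267 to 847 CPM in the sham libraries (median 566), 46.2 to 394 CPM in the fracture libraries (median 145) and 43.7 to 207 CPM in the fracture plus PDX libraries (median 123). This RNA was found in all 18 libraries, those of male mice included, and it goes against the tissue named in the labels. Against sham, all 22 genes lay below 0 with fracture (median log2 fold change -1.73), where 7 were called lower, and with fracture plus PDX (median -2.22), where 20 were called lower. Of all genes, 1.83% and 2.32% were called lower (adjusted p-value under 0.05, edgeR). The summed level of the list is given beside the results for *Csf1r*.

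*Csf1* encodes the ligand that injured sensory neurons are known to release. The gene (ENSMUSG00000014599) lies on the minus strand of mm10 at chr3:107741048-107760469, with 6 annotated transcripts. The promoter is shown because *Csf1* is the member whose level went with that of the axon injury genes, and it is the 1 of the 3 genes with an entry in the RefSeq promoter table (GRCm38.p6). It covers chr3:107760470-107760719, the 250 bases before the start of transcription, read 5′ to 3′ on the minus strand:
Csf1 promoter: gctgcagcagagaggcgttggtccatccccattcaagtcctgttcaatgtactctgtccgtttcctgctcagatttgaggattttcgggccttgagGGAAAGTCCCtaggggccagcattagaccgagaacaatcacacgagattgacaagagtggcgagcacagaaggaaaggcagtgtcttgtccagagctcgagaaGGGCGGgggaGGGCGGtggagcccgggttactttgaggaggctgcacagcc
The capitals mark 1 match to the NF-kB site, on the opposite strand from 154 to 145 bases before the start, and 2 matches to the GC box GGGCGG, from 51 to 46 and from 41 to 36 bases before the start. Both strands were searched, and the sequence held 56.4% G and C. The NF-kB site was present in 7.25% and the GC box in 32.7% of the 32851 promoter entries in windows of the same length. The AP-1 site TGACTCA (4.46% of all entries), the CRE TGACGTCA (1.55%), the PU.1 core GAGGAAG (10.6%) and TATAAA (12.4%) had no match in this window.

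Per transcript length, *Il34* was the most highly expressed of the 3 genes in every group. Sham mice had 17.9 ± 2.21 FPKM (SD, n = 6), fracture mice 17.7 ± 1.66 and those given PDX 16.5 ± 1.77, and *Il34* lay above both other genes in 6 of 6 libraries of each group. *Csf1* followed with 6.17 ± 0.405, 6.41 ± 1.72 and 7.29 ± 1.30 FPKM, and *Csf1r* was lowest with 5.71 ± 0.280, 4.10 ± 0.559 and 4.45 ± 0.369 FPKM. In sham mice the levels of *Csf1* and *Csf1r* lay within the spread between mice, with *Csf1* higher in 5 of 6 libraries, while *Csf1* was higher than *Csf1r* in 6 of 6 libraries of both fracture groups. The ratio of *Csf1* to *Csf1r*, formed from FPKM within each library, was 1.08 ± 0.112 after sham surgery (0.892 to 1.19), 1.57 ± 0.409 after fracture (1.22 to 2.34) and 1.63 ± 0.188 with PDX (1.37 to 1.89). Neither fracture group overlapped the sham group in this ratio. The same held for the level of *Csf1r* alone, while that of *Csf1* overlapped sham in both groups. The ratio of *Il34* to *Csf1r* was 3.14 ± 0.383 (2.68 to 3.61), 4.36 ± 0.440 (3.87 to 4.95) and 3.71 ± 0.433 (3.19 to 4.29) in the same order, so that only the fracture group lay above every sham library.

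**Figure D1:**
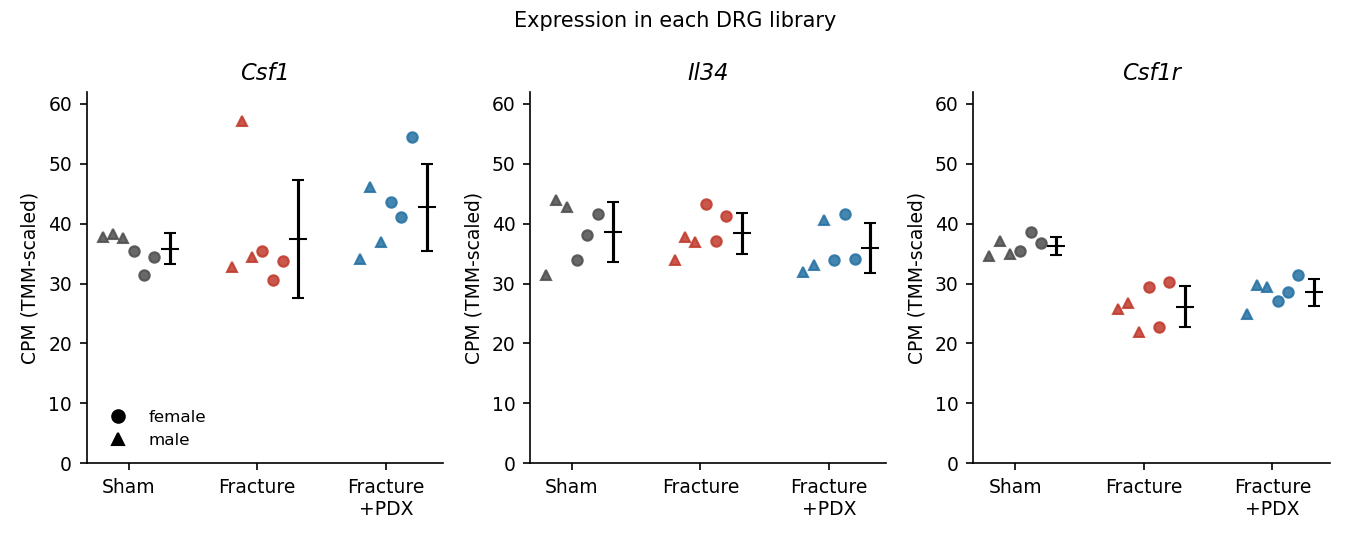
Level in CPM (linear axis from 0) of *Csf1*, *Il34* and *Csf1r* in each of the 18 libraries, by group and sex, with the group mean and SD. All 12 fracture and fracture plus PDX libraries lie below every sham library for *Csf1r*, while the groups overlap for *Csf1* and *Il34*, and 1 male fracture mouse has 57.2 CPM of *Csf1*.

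The expression of *Csf1* did not differ detectably between fracture and sham mice. The sham libraries had 31.5 (lowest), 36.6 (median) and 38.4 CPM (highest), the fracture libraries 30.6, 34.1 and 57.2 CPM, and the groups overlapped. The means were 35.9 ± 2.63 (SD, n = 6) and 37.4 ± 9.85 CPM, and the log2 fold change of 0.06 (SE 0.12, adjusted p = 0.860, edgeR's quasi-likelihood test) corresponded to a difference of 3.95% with a 95% interval from -13.7% to 25.1%. The fracture group held 1 library far above the others, male replicate 2 with 57.2 CPM, and without it the log2 fold change was -0.09. The coefficient of variation of *Csf1* was 7.33% (sham), 26.4% (fracture) and 16.9% (fracture plus PDX). The fracture value rested on male replicate 2, since without it the coefficient of variation in that group was 5.57% for *Csf1*, 9.76% for *Il34* and 14.5% for *Csf1r*.

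With PDX, *Csf1* had 34.1 (lowest), 42.4 (median) and 54.5 CPM (highest), with a mean of 42.7 ± 7.23 CPM. Of the 6 fracture plus PDX mice, 4 lay above every sham mouse. Against sham, the log2 fold change was 0.25 (SE 0.10), a difference of 19.1% with a 95% interval from 1.78% to 39.3%. It did not pass the threshold over all genes (adjusted p = 0.202, edgeR), and the two-sided exact permutation test over the 12 mice gave p = 0.0476. The latter lay at or above 0.05 in 3 other settings, with exact permutation p = 0.05 when labels were exchanged within each sex and p = 0.0606 both with log2(FPKM + 0.1) and without TMM scaling. Against fracture, the log2 fold change was 0.20 (SE 0.17, adjusted p = 0.964, edgeR), with a 95% interval from -12.4% to 49.8%. It was 0.36 (SE 0.098, adjusted p = 0.670, edgeR) without fracture male replicate 2 and 0.11 without fracture plus PDX female replicate 3, and none of the 12 fits that left out 1 library called *Csf1*. Both comparisons with sham use the same 6 sham libraries.

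The sexes were compared because each group held 3 mice of each. In females, *Csf1* had 33.8 ± 2.05 CPM (SD, n = 3) after sham surgery, 33.3 ± 2.47 after fracture and 46.4 ± 7.06 with PDX, and the last group did not overlap either of the others. In the same females, 5.21% of all genes were higher without overlap against fracture and 8.81% against sham. In males it had 37.9 ± 0.368, 41.5 ± 13.6 and 39.0 ± 6.32 CPM, and fracture plus PDX overlapped both other groups. The log2 difference between fracture plus PDX and fracture was 0.47 in females (exact permutation p = 0.1, the smallest that 3 mice against 3 allow) and -0.05 in males (exact permutation p = 0.9). The difference between the sexes was itself tested as an interaction term and did not pass the threshold (log2 -0.57, SE 0.30, adjusted p = 0.998, edgeR). Without fracture male replicate 2 this term was -0.26 (SE 0.19, adjusted p = 0.999, edgeR).

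The level of *Csf1* went with that of genes known to be switched on in sensory neurons after axon injury. The 5 libraries with the most *Csf1* were fracture male replicate 2 (57.2 CPM), fracture plus PDX female replicates 3 (54.5 CPM), 1 (43.7 CPM) and 2 (41.2 CPM), and fracture plus PDX male replicate 2 (46.1 CPM), and the other 13 libraries lay between 30.6 and 38.4 CPM. The same 5 libraries were the 5 highest for *Atf3*, a transcription factor of the axon injury response, and for *Gal*, which encodes the neuropeptide galanin. They were also the 5 highest for *Sprr1a*, a growth-associated gene, *Npy*, which encodes neuropeptide Y, and *Flrt3*, which encodes a cell adhesion protein. Of all 24 genes on the injury list, 13 had these 5 libraries as their highest, 3 shared 4 of the 5, 3 shared 3 and 5 shared 2. The share over all genes was not counted, and the list was chosen with earlier results known. How unusual these counts are therefore cannot be said. In fracture male replicate 2, *Atf3* had 72.5, *Gal* 107 and *Sprr1a* 61.5 CPM. Fracture plus PDX female replicate 3 had 108, 96.3 and 81.7 CPM. In the sham libraries these genes lay at 11.2 to 14.5, 8.11 to 18.2 and 0.410 to 1.78 CPM. Over the 18 libraries, Pearson's r of *Csf1* with the 19 injury genes at 1 CPM or more had a median of 0.69 (0.32 to 0.86), and all 19 lay above 0. After the group and sex means had been removed the median r was 0.74 (0.06 to 0.95), and without fracture male replicate 2 it was 0.60 (-0.11 to 0.88, 18 of 19 above 0). Macrophage markers were set beside them. With 23 such markers, r of *Csf1* had a median of 0.17 (-0.45 to 0.53) over the 18 libraries, and 18 lay above 0. With the group and sex means removed, that median was 0.35 (-0.52 to 0.81), again with 18 above 0. These points share the group, the RNA of the whole ganglion and the depth of each library, and the values are a description.

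**Figure D2:**
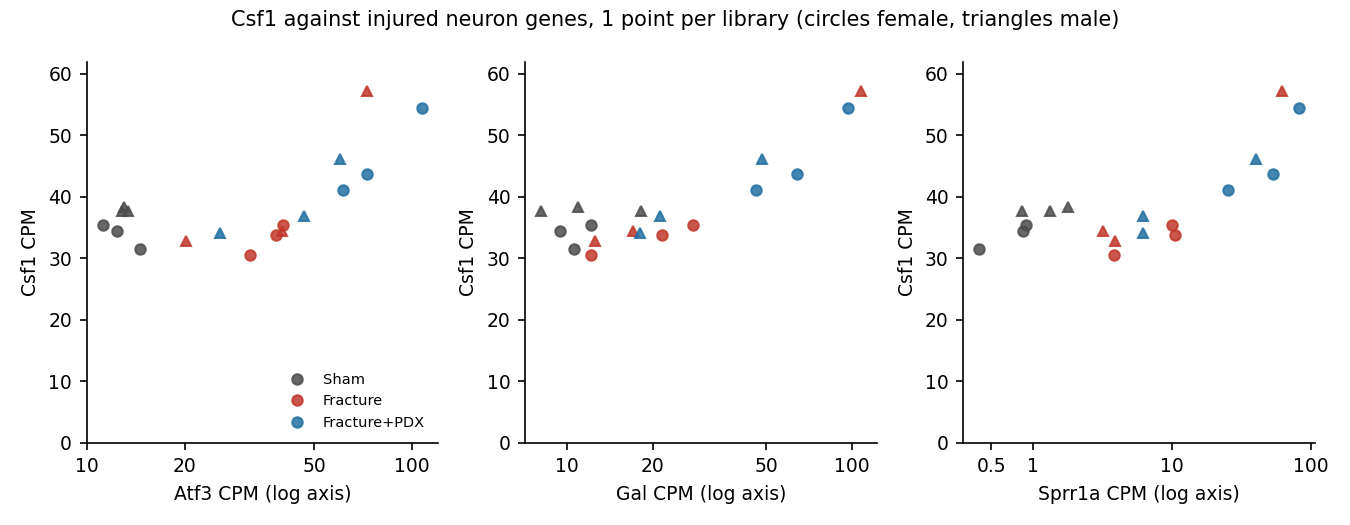
*Csf1* (CPM, vertical axis) against *Atf3*, *Gal* and *Sprr1a* (CPM, log axes), 1 point for each of the 18 libraries, by group. The 5 libraries with the most *Csf1*, from 41.2 to 57.2 CPM, are also the 5 highest for each of the 3 injury genes.

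Injured sensory neuron genes were also counted as a list. Between fracture and sham, 9 of the 21 list genes that passed the filter, of 24 listed, were called higher and none lower, against 1.09% of the 20659 genes tested that were called higher, and the median log2 fold change was 0.39 against 0.0021 over all genes. When 1 library was left out in turn, 2 to 7 genes of the list were called higher. The count was 2 without sham male replicate 2 or 3, and 4 without fracture male replicate 2. Between fracture plus PDX and sham, 16 of 22 that passed were called higher, against 2.17% of 20574 genes (median 0.85 against -0.0013), with 11 to 16 calls when 1 library was left out. *Atf3* rose by a log2 fold change of 1.65 (SE 0.25, adjusted p = 0.0141, edgeR) with fracture and of 2.21 (adjusted p = 0.00260) with fracture plus PDX. *Csf1*, at 0.06 and 0.25 on the same scale, stayed far below these values. Between fracture plus PDX and fracture, 20 of 22 list genes lay above 0 and none was called. With the placenta mean as a covariate in the 12 libraries, 17 of 21 genes lay above 0 with fracture (median 0.55) and 18 of 22 with fracture plus PDX against sham (median 0.89), and none was called in either.

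The genes whose level was most alike to that of *Csf1* over 18 libraries, out of 15799 with a mean of at least 1 CPM, were *Sdc1* (r = 0.87), *Lmo7* (0.87), *Gal* (0.86), *Esd* (0.85) and *Tnfrsf12a* (0.84), the last encoding the TWEAK receptor. Without fracture male replicate 2, the same 5 values were 0.87, 0.85, 0.81, 0.78 and 0.75. On deviations from the group and sex means, the 5 most alike were *Sprr1a* (0.95), *Itga7* (0.93), *Gal* (0.93), *Sema6a* (0.92) and *Tubb6* (0.89), 1 of which was shared with the first 5. By Spearman's rho over 18 libraries they were *Adam8* (0.84), *M6pr* (0.82), *Cd63* (0.82), *Pcdhga8* (0.79) and *Ccdc40* (0.78), none of which was among the first 5 or on the injury list.

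*Il34*, the second ligand, did not differ detectably between any of the groups. The gene (ENSMUSG00000031750) lies at chr8:110741829-110805903 on the minus strand of mm10 and has 5 annotated transcripts. It is overlapped by *Gm15895* and *Gm15894*, which lie on the opposite strand and had at most 32 and 16 counts per library in strand-specific counting. The sham libraries had 31.5 (lowest), 39.9 (median) and 43.9 CPM (highest), the fracture libraries 33.9, 37.4 and 43.3 CPM, and the fracture plus PDX libraries 31.8, 34.0 and 41.6 CPM. The 3 groups overlapped over most of their range, and the means were 38.6 ± 5.05, 38.4 ± 3.38 and 35.9 ± 4.15 CPM.

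The log2 fold change of *Il34* with fracture was -0.0090 (SE 0.085, adjusted p = 0.973, edgeR), with a 95% interval of the difference from -13.1% to 13.6%. Fracture plus PDX differed from fracture by -0.10 (SE 0.071, adjusted p = 0.940, edgeR) and from sham by -0.11 (SE 0.095, adjusted p = 0.630, edgeR), with intervals from -16.3% to 4.49% and from -20.0% to 7.93%. The exact permutation tests gave p = 0.974, 0.247 and 0.355. The sign of the fracture value turned when 1 of 5 libraries was left out, within a range from -0.06 to 0.04. The coefficients of variation of *Il34* were 13.1% (sham), 8.79% (fracture) and 11.6% (fracture plus PDX). The genes most alike to it were *St3gal3* (r = 0.86), *Cfap100* (0.84), *Med8* (0.83), *Fam57a* (0.83) and *Zfp444* (0.82), none of which is a gene of the injury list, and r between *Csf1* and *Il34* was -0.16 over the 18 libraries.

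**Figure D3:**
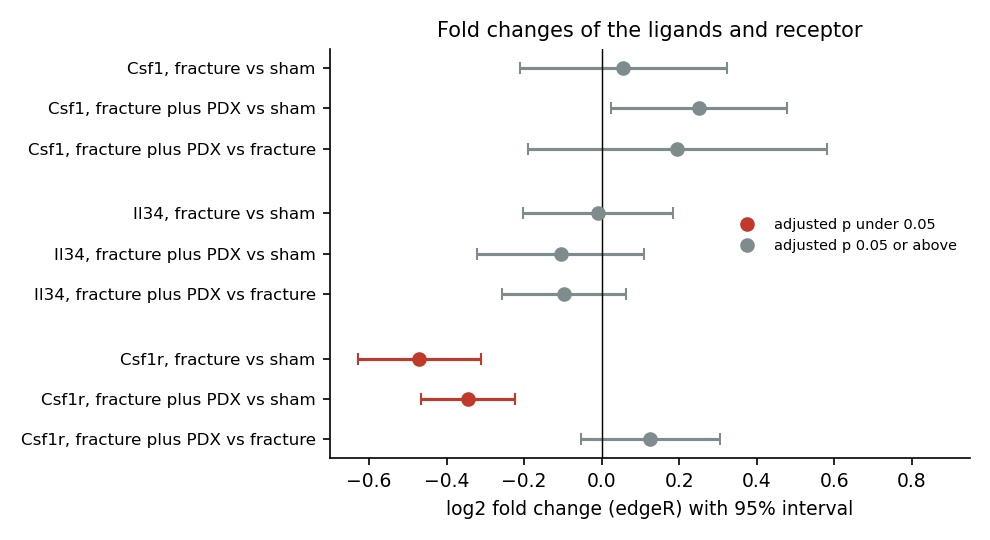
Log2 fold changes of *Csf1*, *Il34* and *Csf1r* in the 3 comparisons (edgeR), each point with its 95% interval. The intervals of *Csf1r* lie below 0 against sham in both fracture groups (-0.47 and -0.34), while those of *Il34* include 0 in all 3 comparisons and that of *Csf1* lies above 0 only for fracture plus PDX against sham.

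*Csf1r* was lower in both fracture groups than in sham mice. The gene (ENSMUSG00000024621, mm10 chr18:61100598-61131134, plus strand, 6 annotated transcripts) encodes the receptor of both ligands, and its pseudogene *Csf1r-ps* had at most 15 counts per library. The sham libraries had 34.5 (lowest), 36.1 (median) and 38.6 CPM (highest), the fracture libraries 22.0, 26.3 and 30.3 CPM, and the fracture plus PDX libraries 24.9, 29.0 and 31.5 CPM. All 12 libraries of the fracture groups lay below every sham library. Against sham, *Csf1r* decreased by 0.47 on the log2 scale with fracture (SE 0.071, adjusted p = 0.00733, edgeR), which is a difference of -27.8% with a 95% interval from -35.4% to -19.4%. With fracture plus PDX it decreased by 0.34 (SE 0.054, adjusted p = 0.00431, edgeR), a difference of -21.2% with an interval from -27.6% to -14.3%. The exact permutation test gave p = 0.00216 in both comparisons, the smallest that 6 mice against 6 allow. Of all genes tested, 1.83% were called lower with fracture and 2.32% with fracture plus PDX, and 1.53% and 1.48% had groups that did not overlap with sham higher, so that the receptor, rank 34 of 20659 and 93 of 20574 by p-value, stood among few genes.

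Between fracture plus PDX and fracture, the *Csf1r* levels overlapped, with means of 28.5 ± 2.29 and 26.2 ± 3.40 CPM (SD, n = 6). The log2 fold change was 0.13 (SE 0.079, adjusted p = 0.917, edgeR), with an interval of the difference from -3.57% to 23.5%, and the exact permutation test gave p = 0.184. No gene was called in this comparison by edgeR (0.0% of 20562), while 1113 genes had an unadjusted p-value under 0.05 (2.86% of those tested were higher at this level) and DESeq2 called 15. The difference from sham was present in both sexes. With fracture it was -0.44 in females and -0.52 in males, and with fracture plus PDX -0.35 in both, each without overlap of 3 against 3 mice (exact permutation p = 0.1, the smallest possible). Of all genes, 8.68% in females and 11.6% in males were lower without overlap with fracture, and 8.54% and 11.0% with fracture plus PDX. When each of the 12 libraries was left out in turn, the log2 fold change ran from -0.51 to -0.42 with fracture and from -0.37 to -0.31 with fracture plus PDX, and all of these were called.

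The level of *Csf1r* moved with that of the placenta genes across groups. Pearson's r of *Csf1r* with the mean of the 22 genes was 0.78 over 18 libraries, which share the difference between sham and the fracture groups. Within groups of 6 libraries it was 0.04 (sham), 0.86 (fracture) and -0.22 (fracture plus PDX). *Csf1* and *Il34* had r of -0.31 and 0.12 with the same mean. Of the 12 libraries of the fracture groups, 1 lay in the sham range of the placenta genes. This was fracture female replicate 3, with a sum of 394 CPM and 30.3 CPM of *Csf1r*, while the lowest sham library, female replicate 3, had 267 CPM and 36.8 CPM of *Csf1r*.

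When the mean level of these placenta genes entered the model as a covariate, an alternative chosen after the data had been seen, the log2 fold change of *Csf1r* with fracture was -0.25 (SE 0.090, adjusted p = 0.738, edgeR) in the 12 libraries and -0.32 (SE 0.091, adjusted p = 0.369) with all 18 libraries in 1 fit. For fracture plus PDX against sham it was -0.35 (SE 0.13, adjusted p = 0.947) and -0.16 (SE 0.099, adjusted p = 0.709). The covariate followed the groups (r = -0.79 for fracture and -0.87 for fracture plus PDX against sham), and with it no more than 1 gene was called in any comparison. The parts of fracture and of the placental RNA in the lower *Csf1r* of both fracture groups therefore cannot be told apart in these libraries. The genes most alike to *Csf1r* were *Pappa2*, *Slco4a1*, *Tgm2*, *Il2rb* and *Serpinh1* (each r = 0.88), and these had r of 0.85, 0.86, 0.90, 0.84 and 0.71 with the mean of the placenta genes. These values carry the difference between sham and the fracture groups. On deviations from the group and sex means the 5 most alike were *Slc39a1* (0.88), *Pcolce* (0.87), *Mcm9* (0.86), *Fads6* (0.82) and *Pafah2* (0.82), none of which was among the first 5.

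**Figure D4:**
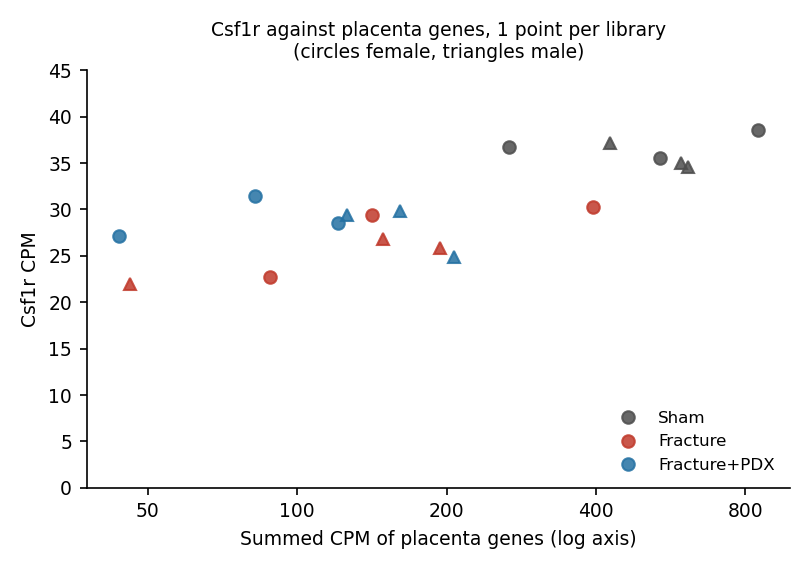
*Csf1r* (CPM, vertical axis from 0) against the summed CPM of 22 placenta genes (log axis), 1 point for each of the 18 libraries, by group. The sham libraries lie at 267 to 847 CPM of placenta genes and the fracture libraries at 46.2 to 394 CPM, with 1 fracture library in the sham range that has 30.3 CPM of *Csf1r*.

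Markers of macrophages, the cells that carry CSF1R in the ganglion, were next set beside the receptor. Between fracture and sham, 24 of 25 macrophage markers lay below 0, with a median log2 fold change of -0.25 against 0.0021 over all genes, and 1 was called, *Adgre1*, which encodes the macrophage protein F4/80 (log2 -0.56, SE 0.098, adjusted p = 0.0139, edgeR). A single call among 25 markers is near the 1.83% of all genes called lower. Between fracture plus PDX and sham, 18 of 25 lay below 0 (median -0.11) and none was called, and between fracture plus PDX and fracture 18 of 25 lay above 0 (median 0.14) and none was called. The summed level of the 25 markers overlapped between groups, at 432 to 518 CPM in sham, 402 to 503 CPM in fracture and 419 to 542 CPM in fracture plus PDX libraries. Of these markers, *Timd4* was without a read in at least 1 library. On the log2 scale, *Csf1r* lay 2.32 ± 0.062 (SD, n = 6) above the mean of the macrophage markers after sham surgery, 2.11 ± 0.16 above it after fracture and 2.11 ± 0.11 with PDX. For this difference the fracture libraries (1.88 to 2.30) overlapped the sham libraries (2.21 to 2.39), and the fracture plus PDX libraries (1.90 to 2.19) did not, by a narrow gap. No share over all genes was counted for it. It includes *Csf1r*, whose level moved with the placenta genes across groups. Across the 18 libraries, r of *Csf1r* with 23 macrophage markers at 1 CPM or more had a median of 0.47, and 21 lay above 0. With the placenta mean as a covariate, 22 of the 25 markers lay below 0 with fracture and none was called.

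**Figure D5:**
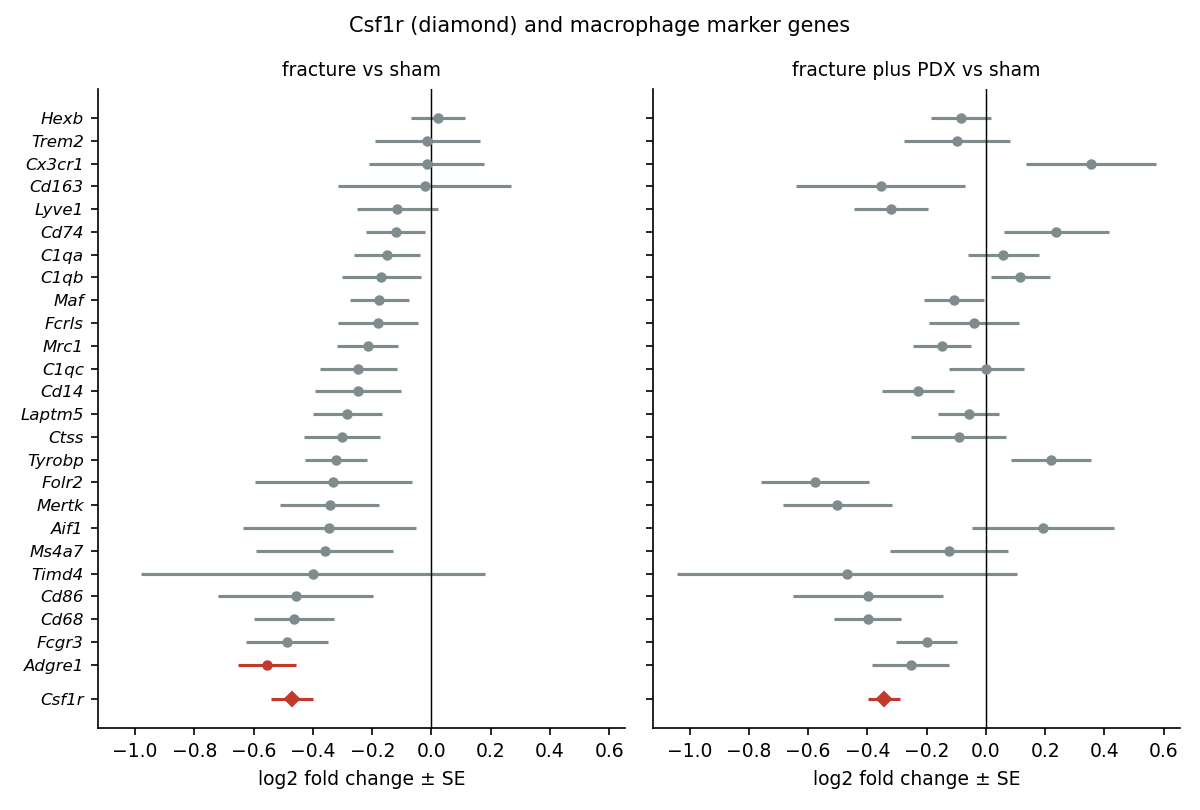
Log2 fold changes with SE (edgeR) of *Csf1r* (diamond) and the 25 macrophage markers, for fracture against sham and fracture plus PDX against sham. *Csf1r* lies at -0.47 and -0.34. Below 0 lie 24 of 25 markers with fracture and 18 of 25 with fracture plus PDX.

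Markers of other cell types were set beside *Csf1r* in the same way. Their calls stand against the 1.83% of all genes called lower with fracture and the 2.32% with fracture plus PDX. All 6 monocyte markers lay below 0 with fracture, and 1 was called, *Plac8* (log2 -1.38, adjusted p = 0.0171, edgeR), a gene that also had r = 0.91 with the placenta mean. With fracture plus PDX against sham, 3 monocyte markers lay above 0 and 3 below, and *Plac8* was again the 1 called (-1.19, adjusted p = 0.00339, edgeR). *Sall1*, a transcription factor of microglia, was called lower in both comparisons (-1.32 and -1.01, adjusted p = 0.0423 and 0.0379, edgeR) at a low level of 1.70 CPM in sham, and it was the only 1 of 6 microglia markers called. The call was made in 2 of the 12 fits that left out 1 library in each comparison. All 12 fibroblast and meningeal markers lay below 0 with fracture, with *Dcn*, which encodes the matrix protein decorin, called (-0.33, adjusted p = 0.0331, edgeR, 3 of 12 fits that left out 1 library), and r of *Csf1r* with these 12 genes had a median of 0.63. With fracture plus PDX against sham all 12 also lay below 0 (median -0.23), and none was called. With the placenta mean as a covariate in the 12 libraries, 8 lay below 0 with fracture and 10 with fracture plus PDX against sham, with none called. Of 9 endothelial and mural markers, 7 lay below 0 and 2 above 0 with fracture (median -0.18), and *Cdh5* (-0.73, adjusted p = 0.0117, edgeR) and *Flt1* (-0.71, adjusted p = 0.0171, edgeR) were called lower. With fracture plus PDX against sham all 9 lay below 0, and *Cdh5* and *Flt1* were again called (-0.74 and -0.73, adjusted p = 0.00216 and 0.00339, edgeR). These 2 genes had r of 0.86 and 0.91 with the placenta mean. Of 8 satellite glial markers, 5 lay above 0 with fracture and none was called. With fracture plus PDX against sham 4 lay above 0, *Kcnj10*, a potassium channel gene, was called higher (0.27, adjusted p = 0.0493, edgeR) and *Sox10*, a glial transcription factor, lower (-0.15, adjusted p = 0.0483, edgeR), in 1 and 3 of the 12 fits that left out 1 library. Of 12 sensory neuron markers, 11 lay above 0 with fracture and 4 were called higher, against 1.09% of all genes. These were *Tubb3*, *Uchl1*, *Nefh* and *Scn9a*, by log2 fold changes of 0.17, 0.14, 0.22 and 0.16, and 2 to 6 markers were called when 1 library was left out. With fracture plus PDX, 11 of 12 lay above 0 against sham and 3 were called higher, *Tubb3*, *Uchl1* and *Rbfox3*, against 2.17% of all genes, with 2 to 5 called when 1 library was left out. All 7 red blood cell markers lay below 0 against sham, with fracture (median -0.53) and with fracture plus PDX (median -0.23), and none was called. Their sums overlapped, at 781 to 2232 CPM in sham, 978 to 1360 CPM in fracture and 502 to 2900 CPM in fracture plus PDX libraries. The part of these shifts in the values of *Csf1r* was not tested.

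Downstream of the receptor, 27 genes that carry, tune or end the CSF1R signal were measured, from kinases and adaptors to phosphatases and the proteases that shed receptor and ligand. Between fracture and sham, 11 lay above 0 and 16 below, with a median log2 fold change of -0.03, and 2 of 27 were called lower and none higher, against 1.83% of all genes called lower and 1.09% called higher. Among the called genes was *Inpp5d*, which encodes the lipid phosphatase SHIP1 (-0.53, SE 0.13, adjusted p = 0.0473, edgeR). It lay just under the threshold and was called in 2 of the 12 fits that left out 1 library, and between 0 and 3 genes of the list were called lower when 1 library was left out. *Syk* (-0.63, adjusted p = 0.0858, edgeR), *Plcg2* (-0.38, adjusted p = 0.0755), *Lyn* (-0.29, adjusted p = 0.0626) and *Spi1*, the gene of the macrophage transcription factor PU.1 (-0.39, adjusted p = 0.265), did not pass the threshold. *Tyrobp*, which encodes the adaptor DAP12, had log2 fold changes of -0.32 with fracture, 0.54 between fracture plus PDX and fracture, and 0.22 between fracture plus PDX and sham. With the placenta mean as a covariate, none of the 27 genes was called with fracture.

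With PDX, 20 of the 27 genes lay above 0 against fracture and none was called. Against sham, 13 lay above 0 and 14 below (median -3.4e-04), and *Stat3*, a transcription factor that cytokine receptors activate, was called higher (log2 0.14, SE 0.035, adjusted p = 0.0337, edgeR), 1 of 27 against 2.17% of all genes. This call was made in 5 of the 12 fits that left out 1 library. *Ptprz1*, the gene of a receptor phosphatase that binds IL-34, had log2 fold changes of 0.07, 0.12 and 0.19 in the 3 comparisons. *Sdc1*, the gene of syndecan-1, which also binds IL-34 and was most alike to *Csf1*, had 0.20, 0.30 and 0.50 (adjusted p = 0.334, 0.927 and 0.154, edgeR).

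Related ligands and receptors did not pass the test. Of 7 other genes of colony-stimulating factors and their receptors, 4 could be tested, all of them receptor genes, and none was called, while *Il3* was not analysed here. The value farthest from 0 was that of *Csf3r*, the G-CSF receptor, at -0.75 on the log2 scale with fracture (adjusted p = 0.0857, edgeR). *Csf2* and *Csf3*, which encode GM-CSF and G-CSF, had at most 0.02 FPKM in any group and were left out by the filter on low counts. Among 10 genes of the other class III receptor kinases and their ligands, such as *Kit*, *Flt3* and *Pdgfra*, none was called in any comparison with all libraries. The same was true of 10 other genes by which neurons and macrophages signal to each other, such as *Cx3cl1*, *Cx3cr1*, *Ccl2* and *Ccr2*. When 1 library was left out, at most 1 gene of either list was called in a comparison with sham. Of these, *Tafa4*, a chemokine-like gene of C-fiber neurons, had a log2 fold change of 0.26 between fracture plus PDX and sham (adjusted p = 0.0520, edgeR). *Cd200*, whose product restrains myeloid cells, had 0.13 between fracture and sham (adjusted p = 0.0769, edgeR).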

How the data were processed

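DRG RNA of 18 CD1 mice had been sequenced from strand-specific, paired-end libraries after poly(A) selection. The authors deposited the raw read counts of each gene, without normalization, and FPKM values of the same genes and libraries, scaled by transcript length and mapped fragments. The submitters' processing notes name mm10, cutadapt 1.10, FastQC, HISAT2 and StringTie. Groups were taken from the sample labels, and each replicate is a separate mouse. The control columns of the table are named Con and were read as the sham mice, since sham is the only group without a fracture, and every comparison with sham rests on this reading.

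The analysis used edgeR 4.0.16 in R 4.3.3. Genes were filtered by filterByExpr (minimum count 10, minimum total 15) and scaled by TMM, and a quasi-likelihood model with sex and group was fitted for each comparison on its 12 libraries. The Benjamini-Hochberg adjustment ran over every gene tested, and a gene was called at an adjusted p-value under 0.05. Intervals (95%) come from the SE with 9 residual degrees of freedom. Single genes were also compared by two-sided exact permutation tests of log2 CPM (prior count 2) over all 924 labelings. The fits were tested on simulated counts. With 6 mice per group, the intervals give the uncertainty of the difference between groups, which rests mostly on the spread between mice. Reads per gene limit it little at this depth.

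The 3 genes and the gene lists were chosen with earlier results of these data known, so list counts are a description, and the list of placenta genes was chosen after its values were seen. Named genes are the 3 members, the 5 genes most alike to each by Pearson's r of log2 CPM and of its deviations from group and sex means (Spearman's rho as an alternative), list genes that were called (up to 10 per list), the 2 of each list with the smallest p per comparison and the 2 with the highest FPKM, and any of the signaling, colony-stimulating factor and neuron-macrophage lists. *Timd4*, *Kit*, *Flt3* and *Pdgfra* are examples chosen after their values were seen, as was *Gal* where it is named for its level. In the signaling list, 1 called gene is not reported here. Promoter sequence came from RefSeq (GRCm38.p6), where 1 of the 3 genes matched.

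The alternatives were DESeq2 1.42.0, other scaling and filters, no sex term, a block for mice that shared sex and number, a joint fit of the 18 libraries, limma 3.58.1 on log2(FPKM + 1) and log2(FPKM + 0.1), and leaving out each library. The placenta covariate, the interaction without fracture male replicate 2, and the lists without each library were added after seeing the data.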

Additional observations from a re-analysis of the deposited data

Results flagged for a closer look

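*Csf1* in fracture male replicate 2 was 57.2 CPM, far above the other 5 fracture libraries by Dixon's test of the gap to the nearest value. By chance this test marks about 1 in 20 groups. The same library was among the 5 highest of all 18 for *Atf3*, *Gal* and *Sprr1a*, at 72.5, 107 and 61.5 CPM.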

How the results depend on the processing

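Over 27 results, 321 alternative values were computed, and 283 kept the direction and the side of the threshold or, for counts, stayed within 1.5 times, while 7 lost the threshold, 0 gained it, 23 counts moved further and 8 turned direction. The genes called were 603 between fracture and sham, 1511 with DESeq2 and 213 to 710 without 1 library (380 or fewer without sham male replicate 2 or 3, sham female replicate 1 or 2, any fracture male or fracture female replicate 2). Between fracture plus PDX and sham they were 925, 1620 with DESeq2 and 498 to 1008 without 1 library (560 or fewer without sham male replicate 2 or 3, sham female replicate 2, PDX male replicate 3 or PDX female replicate 1). Between fracture plus PDX and fracture they were 0, 15 with DESeq2 and 0 to 1 without 1 library. With the placenta covariate in 12 and in 18 libraries, the counts were 1 and 1 for fracture and 0 and 1 for fracture plus PDX against sham, and *Csf1r* was -0.25 and -0.32, and -0.35 and -0.16, no longer called. *Csf1* with fracture ran from -0.087 (without fracture male replicate 2) to 0.11 without 1 library and was -0.036 with the covariate in 18 libraries, and its sex interaction turned from 0.15 to -0.15 without fracture male replicate 2. *Il34* with fracture ran from -0.062 to 0.040, turning to 0.040, 0.029 and 0.0076 without sham male replicate 2 or 3 or sham female replicate 3, and to 0.021 and 0.0061 without fracture male replicate 1 or fracture female replicate 2. The exact permutation test of *Csf1* between fracture plus PDX and sham gave differences of 0.24 (labels exchanged within each sex), 0.22 (log2(FPKM + 0.1)) and 0.22 (no TMM), with p of 0.05, 0.0606 and 0.0606. The causes were not tested.

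With the replicate number as a block, 118 genes were called for fracture and 486 for fracture plus PDX against sham. Same-numbered mice had r of -0.0705 to 0.126, and 9 of 18 correlated best with their own number. These values cannot settle whether the numbers paired the mice. *Csf1r* stayed called under the block (adjusted p = 0.0324 and 0.0119, edgeR). The placental RNA, the groups of 6 mice and the whole ganglia limit these values, while 1707 or more counts per library lie behind each of the 3 genes.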

Other observations

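Markers of further cell types were counted in the same way. All 10 neutrophil and granulocyte precursor markers lay below 0 between fracture and sham (median log2 fold change -0.78) and above 0 between fracture plus PDX and fracture (median 1.13), and none was called in either comparison by edgeR, although all 10 had an unadjusted p-value under 0.05 in the second, against 2.86% of 20562 genes that were higher at this level. Their sums overlapped, at 93.4 to 197 CPM in fracture and 82.2 to 485 CPM in fracture plus PDX libraries. All 8 skeletal muscle markers lay above 0 with fracture (median 1.99) and below 0 between fracture plus PDX and fracture (median -1.91), with none called and sums from 46.7 to 1070 CPM within the fracture group. Of 8 Schwann cell markers, 7 lay below 0 with fracture (median -0.22) and 8 with fracture plus PDX against sham (median -0.20), and none was called.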
